A study of Zea mays with 8 samples.

Results

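Alternative oxidases and voltage-dependent anion channels (VDACs, the mitochondrial porins) were read by 6 probe sets, each for 1 gene, among 1108 genes named on the array. The members were all genes whose annotated symbol or synonym begins with aox or vdac and a number. There were 3 alternative oxidase genes, LOC542074, LOC542073 and aox3, and 3 channel genes, vdac1a, vdac1b and vdac2. LOC542074 carries the synonyms aox1 and aox2 and LOC542073 the synonym aox1, so both are given by locus. Expression was measured in the above-ground parts of maize seedlings of the B73 background, cut 11 days after planting, in 4 pools of DpDf plants and 4 pools of their wild-type siblings, and each pool held 12 plants. The duplicate-deficient (DpDf) genotype descends from the T5-6b translocation. Such plants have the larger portion of the chromosome 5 short arm in 3 copies, and on 1 homologue they lack the tip of the satellite of chromosome 6. Seedlings of both genotypes came from self-pollinated DpDf parents and were sorted by 1 marker near the chromosome 5 breakpoint. Replicates 1 and 3 came from 1 seed source (A) and replicates 2 and 4 from another (B).

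Alternative oxidase sits in the inner mitochondrial membrane of plants and passes electrons from ubiquinol straight to oxygen. Electrons that take this route skip the proton-pumping complexes of the cytochrome pathway, so less ATP is made from them, and its transcripts are known to respond when the cytochrome pathway is blocked. VDACs form the wide channels of the outer mitochondrial membrane through which ATP, ADP and organic acids pass between the cytosol and the intermembrane space.

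None of the genes lies on the duplicated segment. In RefSeq's gene order for Zm-B73-REFERENCE-NAM-5.0, LOC542074 and aox3 are close neighbours on chromosome 2, with 1 annotated gene between them. LOC542073 is on chromosome 5 as well, but on its long arm, as gene 4416 of 5209 counted from the end of the short arm. On chromosome 6, vdac2 is gene 4218 of 4610 and so lies far from the deficient tip. The annotation places vdac1a on chromosome 2 and vdac1b on chromosome 7.

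The samples expressed what leafy shoots express. All 5 leaf marker genes found in the annotation, of 13 listed, passed the filter on low signal, a mean log2 value of 4.76 (27.0 on the linear scale). Their summed intensity was 55398 to 63625 in DpDf pools and 47437 to 58924 in wild-type pools. All 5 had a higher mean in DpDf, by a log2 difference of 0.11 for Cab-m7, 0.18 for me3, 0.12 for pdk1, 0.19 for pep1 and 0.12 for ssu1. Their adjusted limma p ran from 0.0977 to 0.807, and from 0.0820 to 0.188 with the replicate block. Of 6 seed storage and endosperm genes found, only bt2 and zp27 passed it, and the 1 pollen gene found, mgs1, did not. Root markers were not among the annotated genes.

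Among the oxidases, LOC542074 had the largest genotype difference. Its probe set was dim, with a mean log2 signal above that of 39.2% of probe sets. Replicates 1 to 4 had a linear intensity of 46.6, 51.8, 55.5 and 69.5 in DpDf, against 56.8, 73.8, 116.3 and 111.3 in wild type. Every DpDf pool lay below the wild-type pool of its own number, and the groups overlapped because wild-type replicate 1 fell inside the DpDf range. On the log2 scale the means were 5.79 ± 0.24 in DpDf and 6.42 ± 0.49 in wild type (SD, n = 4 each), a DpDf level 0.64 times that of wild type. The log2 difference was -0.64 (SE 0.23, 95% interval -1.15 to -0.12), and it did not pass the threshold of an adjusted p of 0.05 in the limma fit with genotype alone (adjusted p = 0.185). With the replicate number as a block it fell by 0.64 (95% interval -0.92 to -0.35, limma adjusted p = 0.0148). With 16 added to each intensity before log2, and genotype alone, the difference was -0.52 (limma adjusted p = 0.187). As in all of these samples of whole shoots, fewer cells of a type and less RNA per cell cannot be told apart.

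Signal of LOC542074 was widely spread within each genotype. Among the wild-type pools the SD of LOC542074, 0.49, was higher than that of 97.4% of the 12335 probe sets tested, whose median SD was 0.13. Replicates 3 and 4 were the highest in both genotypes. Taken pair by pair, the log2 differences were -0.29, -0.51, -1.07 and -0.68 for replicates 1 to 4. Without wild-type replicate 1, the pool in the DpDf range, the difference was -0.83 and passed without the block (limma adjusted p = 0.0394, against a range of 0.0148 to 0.842 over all alternatives).

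LOC542073, the other expressed oxidase gene, had a smaller difference. The probe set read 156.5, 239.9, 206.2 and 249.0 in the DpDf pools and 189.2, 249.4, 286.1 and 283.0 in their wild-type siblings, by replicate number. Again each DpDf pool was the lower of its pair, by as little as 0.056 on the log2 scale in replicate 2 and as much as 0.47 in replicate 3, while the groups overlapped broadly. The log2 difference was -0.25 (SE 0.17, 95% interval -0.63 to 0.14, limma adjusted p = 0.519). With pairs kept as blocks the interval was -0.43 to -0.066 and the adjusted limma p 0.0896. DpDf replicate 1 was the lowest of the 8 pools, and without it the difference was -0.11.

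The third oxidase gene, aox3, was close to background in these shoots. The DpDf pools read 15.4, 11.3, 15.7 and 20.6, against 10.3, 16.9, 17.6 and 15.7 in wild type. All 8 values lie under the filter, so aox3 was not in the fit across the array. Both directions occurred among the pairs, 2 higher and 2 lower in DpDf. The log2 means were 3.94 ± 0.36 in DpDf and 3.89 ± 0.36 in wild type (SD, n = 4 each), and the two-sided exact permutation p was 0.886. At this signal a difference between genotypes could not be measured.

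**Figure D1:**
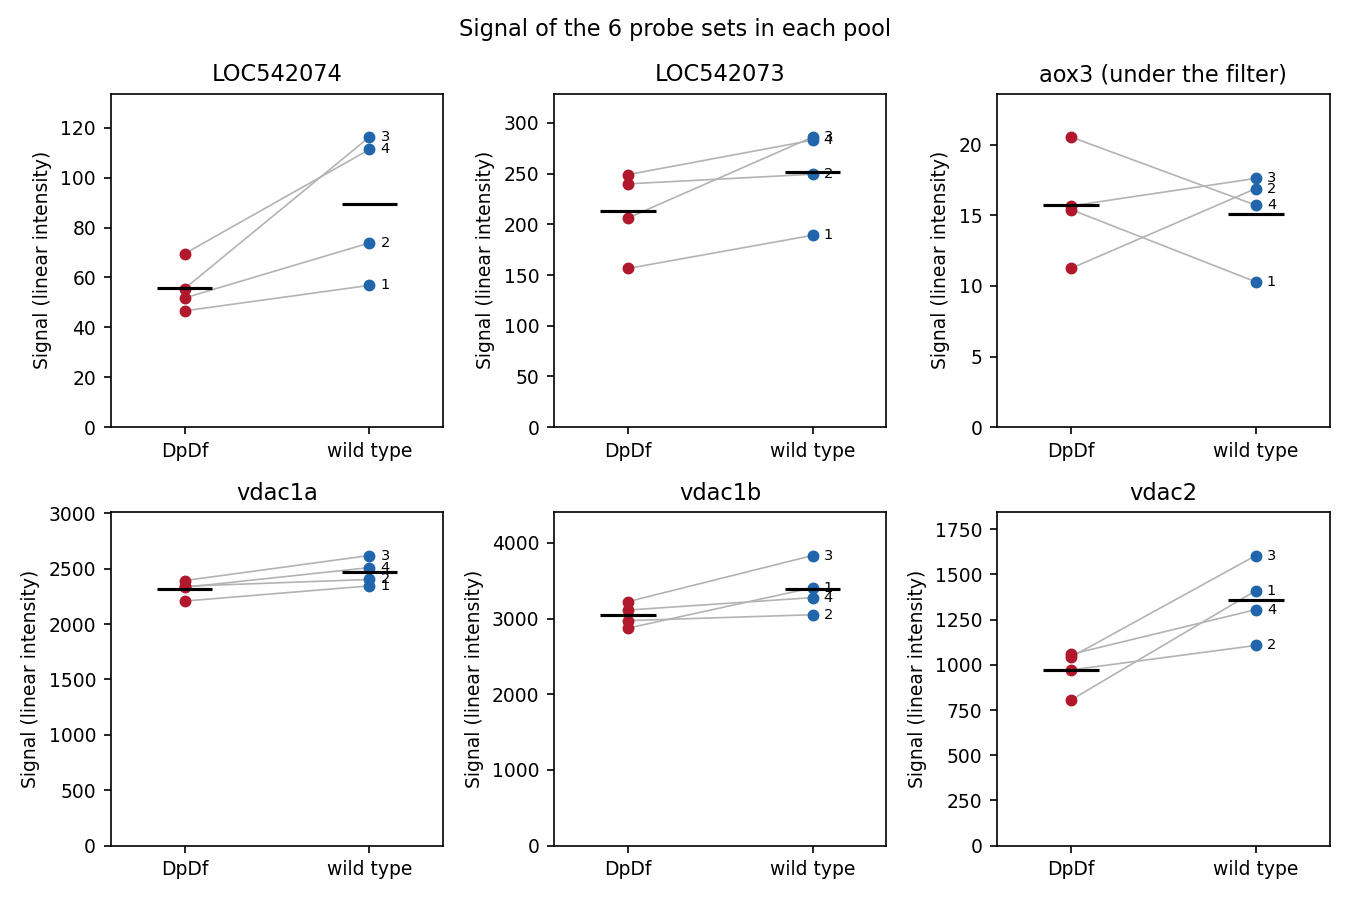
Linear intensity (vertical axes, each from 0) of the 3 alternative oxidase and 3 VDAC probe sets in the 4 DpDf pools (red, left) and the 4 wild-type pools (blue, right). Grey lines join pools of the same replicate number, written at the right, and black bars are means. In every panel but that of aox3 all 4 lines run upwards to wild type, and the groups are separate only for vdac2.

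Of the channel genes, vdac2 was the member whose genotype groups did not overlap. The 4 DpDf pools read 805.7, 971.6, 1043 and 1058, against 1410, 1107, 1604 and 1305 in wild-type replicates 1 to 4. The highest DpDf pool, replicate 4, was just under the lowest wild-type pool, replicate 2. Over all tested probe sets, 4.80% had every DpDf pool below every wild-type pool. The log2 means of vdac2 were 9.91 ± 0.18 in DpDf and 10.39 ± 0.22 in wild type (SD, n = 4 each), 0.72 times the wild-type level. The difference of -0.48 (SE 0.12, 95% interval -0.76 to -0.20) was just short of the threshold with genotype alone (limma adjusted p = 0.0613) and passed with the replicate block (limma adjusted p = 0.0205). It also passed after quantile normalization (-0.49, limma adjusted p = 0.0495) and without wild-type replicate 2 (-0.57, limma adjusted p = 0.0231), and its adjusted p ran from 0.0205 to 0.765 over all alternatives.

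The size of the vdac2 difference varied between pairs. On the log2 scale it was -0.81, -0.19, -0.62 and -0.30 for replicates 1 to 4, so both pairs of seed source A were larger than both of seed source B. Within source A the difference was -0.71 and within source B -0.25 (2 pools per genotype each). The interaction of genotype and seed source for vdac2, B minus A, was 0.47 (SE 0.21, limma adjusted p = 1.00, and 0.989 with the block), while its unadjusted limma p was 0.0538, and 0.00603 with the block. Within sources A and B, LOC542074 differed by -0.68 and -0.60, LOC542073 by -0.37 and -0.12, vdac1a by -0.11 and -0.072, and vdac1b by -0.25 and -0.056. For these 4 genes the interaction was between 0.037 and 0.25, again with an adjusted limma p of 1.00.

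The remaining channel genes, vdac1a and vdac1b, were read by bright probe sets. Within wild type the SD of vdac1a, 0.070 on the log2 scale, was below the array median of 0.13, and that of vdac1b was 0.14. For vdac1a the intensities were 2207, 2341, 2392 and 2331 in DpDf, against 2344, 2402, 2618 and 2509 in wild type. Its log2 difference was -0.090 (SE 0.054, 95% interval -0.21 to 0.030, limma adjusted p = 0.439, and 0.266 with the block). For vdac1b the intensities were 2873, 2973, 3223 and 3113 in DpDf, against 3408, 3051, 3833 and 3277 in wild type, a log2 difference of -0.15 (SE 0.073, 95% interval -0.32 to 0.012, limma adjusted p = 0.332, and 0.126 with the block). DpDf was the lower member of all 4 pairs for each, but the groups overlapped. The interval of vdac1a leaves room for a DpDf level between 0.86 and 1.02 times that of wild type. A gene with the synonym porin1 (LOC542412), named outside the rule and chosen after its values were seen, was read by 2 probe sets that differed by -0.019 and -0.069 (limma adjusted p = 0.962 and 0.627).

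Set beside the whole array, the fit with genotype alone called 0 of the 5 tested members, while it called 4.87% of all probe sets, 4.03% higher and 0.843% lower in DpDf. At an unadjusted p under 0.05 there were 2 members, vdac2 and LOC542074, and 17.0% of all probe sets. The replicate block called the same 2 genes, both lower, where it called 3.35% of all probe sets lower and 10.2% in either direction. All 5 members had a lower mean in DpDf and were lower in each of the 4 pairs. With the 3' minus 5' difference of the control probe sets as a covariate, vdac1b turned to 0.0093, and LOC542073 and vdac1a were at -0.083 and -0.033 (limma adjusted p = 0.995, 0.992 and 0.987). Across the array 57.2% of probe sets had a lower mean and 18.1% were lower in every pair. The median log2 difference of the 5 was -0.25, and that of all tested probe sets -0.023. A difference below that of LOC542074 was found for 0.608% of tested probe sets, and one below that of vdac2 for 1.35%.

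**Figure D2:**
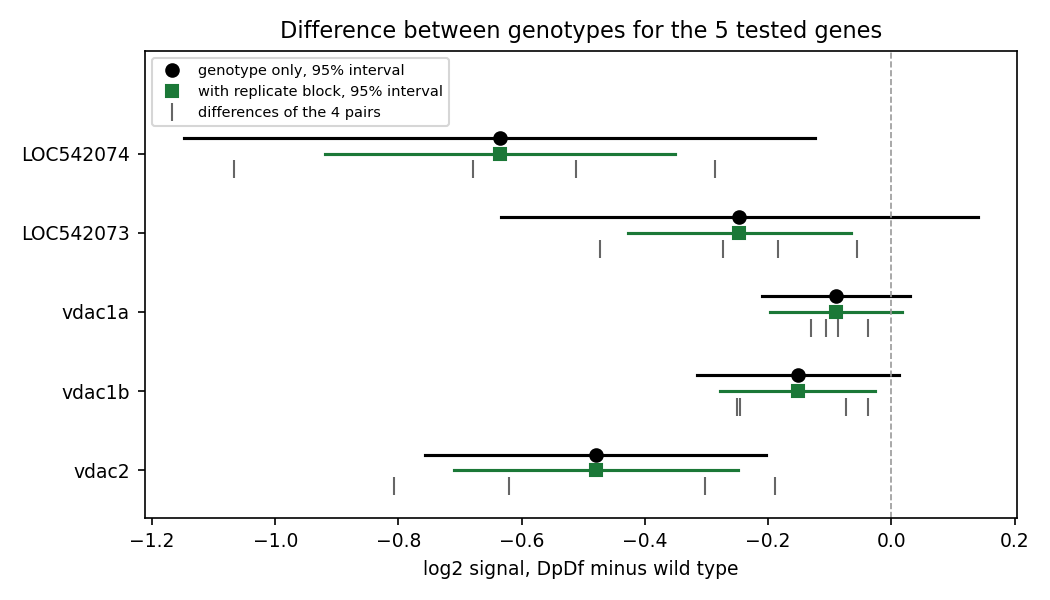
Log2 difference, DpDf minus wild type (horizontal axis), of the 5 tested genes, with 95% limma intervals for genotype alone (black) and with the replicate block (green); grey ticks are the 4 pairs. The points of LOC542074 at -0.64 and vdac2 at -0.48 lie farthest from 0, and the ticks of each gene are all below 0.

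Whether members of a family differed by unequal amounts was tested on the log2 ratio of 2 probe sets within each pool, for 4 ratios, by two-sided exact permutation over the 70 assignments of 8 pools. The ratio of vdac2 to vdac1a was lower in DpDf by 0.39 (SE 0.12) and that of vdac2 to vdac1b by 0.33 (SE 0.077). Both were lower in all 4 pairs, with p = 0.0286 in the exact test, the smallest p it allows, and 0.0571 adjusted over the 4 ratios. With the replicate pairs kept together their p was 0.125, the smallest that 16 exact sign flips allow. Both ratios hold vdac2, whose groups were already seen not to overlap, so they are not independent of its own difference. The ratio of LOC542074 to LOC542073 differed by -0.39 (SE 0.16, exact permutation p = 0.0571, adjusted p = 0.0762). For vdac1b over vdac1a the difference was -0.062 (SE 0.056, exact permutation p = 0.314, adjusted p = 0.314). After adjustment none of the 4 passed, and a ratio of this kind shows unequal change without saying which gene moved.

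Likeness of pattern over the pools was measured for each tested member. Among 914 other named genes tested, the highest Pearson correlations with LOC542074 over the 8 pools were those of adh1 (r = 0.946), which encodes alcohol dehydrogenase, of lg3 (r = 0.945), a knotted-like homeobox gene, and of GRP (r = 0.935). LOC542073 was most like LOC541836 (r = 0.977), LOC541824 (r = 0.971) and kn1 (r = 0.959), the knotted1 gene that marks shoot meristem cells. These correlations are descriptions over pools that share 2 genotypes and 4 replicate numbers. With the genotype means taken out, those with LOC542074 were 0.920 for adh1, 0.935 for lg3 and 0.904 for GRP. Those with LOC542073 were then 0.972 for LOC541836, 0.965 for LOC541824 and 0.959 for kn1.

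Both meristem markers found, of 5 listed, had a lower mean in DpDf. By replicate, kn1 read 142.7, 203.9, 198.7 and 204.6 in DpDf, against 182.3, 221.4, 269.8 and 245.2 in wild type. For lg3 the values were 67.6, 77.6, 97.4 and 89.3 in DpDf, against 66.8, 109.1, 165.3 and 162.5 in wild type. Replicate 1 of each genotype was low for both. The sum of the pair of markers was 210.3 to 296.1 in DpDf and 249.1 to 435.1 in wild type. Their log2 differences were -0.29 for kn1 and -0.53 for lg3 (limma adjusted p = 0.362 and 0.363, and 0.0387 and 0.0492 with the replicate block). Of the 2 epidermis markers, ocl4 differed by -0.31, lower in all 4 pairs. Its adjusted limma p was 0.203, and 0.0259 once pairs were blocks. The other, ocl1, differed by -0.057 (limma adjusted p = 0.745). Their summed intensity was 606.9 to 691.1 in DpDf and 638.6 to 786.7 in wild type. The part of meristem or epidermis tissue in the member differences was not tested.

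**Figure D3:**
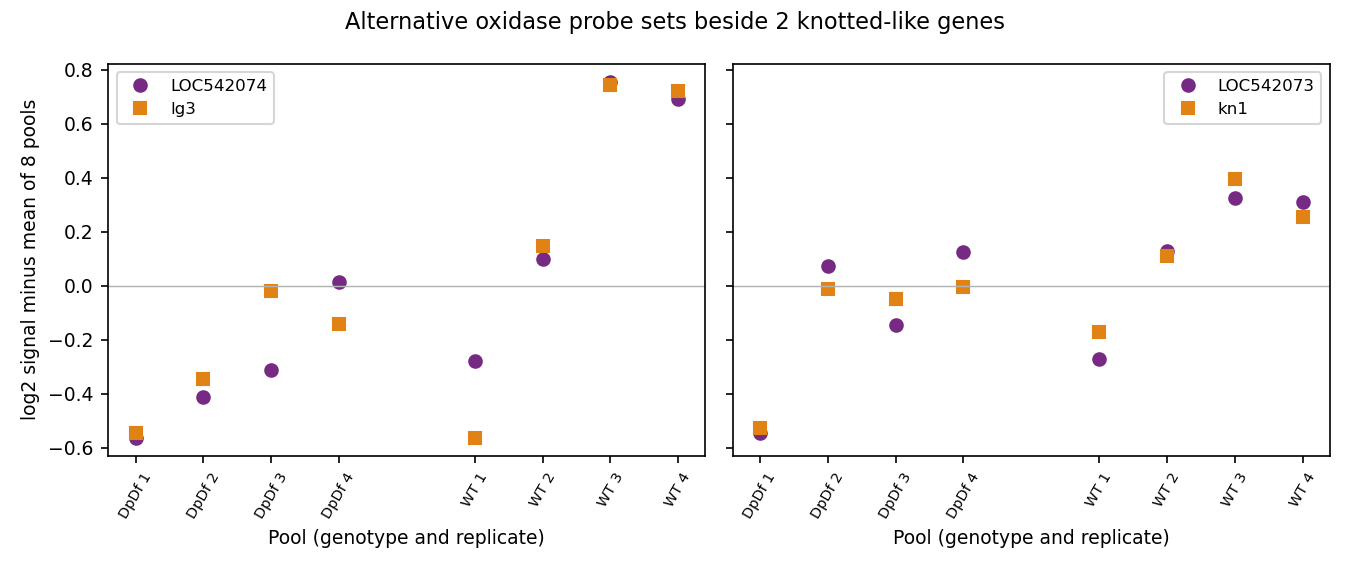
Log2 signal minus its mean over 8 pools (vertical axis) for LOC542074 beside lg3 (left) and LOC542073 beside kn1 (right), in DpDf and wild-type (WT) pools along the horizontal axis. Circles are the oxidase genes and squares the knotted-like genes. In each panel the 2 sets of symbols lie close together in most pools (r = 0.945 and 0.959). Genes not drawn correlated more highly, adh1 with LOC542074 (r = 0.946) and LOC541836 with LOC542073 (r = 0.977).

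Outside the members, the channel genes were most like genes of other kinds. Among the channel genes, vdac1b and vdac2 correlated at r = 0.934 over the 8 pools, vdac1a and vdac2 at 0.834, and vdac1a and vdac1b at 0.829. The members were not among the genes compared next. Closest to vdac2 were HDA108, a histone deacetylase gene (r = 0.955), LOC541617 (r = 0.952) and sdg113, a SET domain gene (r = 0.952). HDA108 was also among the closest to vdac1b (r = 0.960), after pdi12, a protein disulfide isomerase gene (r = 0.985), and nfc102 (r = 0.960). For vdac1a they were adss1, which encodes adenylosuccinate synthetase (r = 0.952), frk1, a fructokinase gene (r = 0.949), and gpt (r = 0.945). Of these 8 genes LOC541617 alone passed with the replicate block (-0.45, limma adjusted p = 0.0386, and 0.153 with genotype alone).

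Genes of mitochondrial metabolism, of fermentation and of peroxide and superoxide removal were taken from 5 lists matched by gene name. Of their 32 genes, 27 were tested. Apart from mdh5, left out as cytosolic by its annotated name, where in the cell the products act was not checked. The counts are thus not limited to mitochondrial proteins. With genotype alone 0 of the 27 were called in limma, where 4.87% of all probe sets were, and 9 had an unadjusted p under 0.05, against 17.0% of all probe sets. The replicate block called 1 higher and 5 lower, against 6.81% and 3.35% of all probe sets. Their median log2 difference was -0.11, with 19 of the 27 lower on average in DpDf, against 57.2% of all probe sets.

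Carriers and membrane proteins that work beside the porins came first. All 6 tested genes of the carrier and import list, 4 prohibitin genes and the adenine nucleotide translocators ANT1 and ANT2, had a lower mean by their brightest probe set (median -0.13). For phb1, named outside the rule after its values were seen, that set differed by -0.054, while its 2 dimmer sets differed by 0.18, higher in all 4 pairs, and by 0.050 (limma adjusted p = 0.742, 0.447 and 0.914). The translocators exchange ADP and ATP across the inner membrane, and prohibitins form ring-shaped complexes in it. phb3 read 157.5, 137.5, 165.0 and 165.0 in DpDf, against 184.2, 175.6, 226.9 and 213.1 in wild type, without overlap. It fell by 0.35 with the replicate block (limma adjusted p = 0.0129, and 0.0964 with genotype alone). With the same block phb2 fell by 0.22 (limma adjusted p = 0.0268, and 0.174). phb4 differed by -0.19 (limma adjusted p = 0.401). Also named outside the rule after their values were seen, ANT1 and ANT2, at -0.068 and -0.0013, were near 0 (limma adjusted p = 0.553 and 0.995). The 1 gene of electron transport and ATP synthesis that was found, ATP2, encoding the beta subunit of mitochondrial ATP synthase, differed by -0.10 (limma adjusted p = 0.348).

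The difference farthest from 0 in the 5 lists belonged to a fermentation gene, pdc3, which encodes pyruvate decarboxylase. It read 509.3, 423.5, 539.7 and 465.4 in DpDf, against 633.4, 559.7, 775.1 and 670.7 in wild type. No DpDf pool reached the lowest wild-type pool. Its difference of -0.44 (SE 0.11) missed the threshold with genotype alone (limma adjusted p = 0.0551) and passed with the replicate block (adjusted p = 0.00324) or with seed source as a block (adjusted p = 0.0186). adh1 read 1369, 1300, 1456 and 1498 in DpDf, against 1518, 1645, 1835 and 1798 in wild type, again without overlap. It fell by 0.27 with the replicate block (limma adjusted p = 0.0174, and 0.0868 with genotype alone). adh2 differed by 0.058 (limma adjusted p = 0.841), and pdc1 and pdc2 were under the filter.

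Among pyruvate, citric acid cycle and matrix enzymes 6 of 8 tested genes had a lower mean (median -0.15). The list was matched by name, and whether the products of mdh6 and rf2c are mitochondrial was not settled here. The smallest p belonged to mdh6, a malate dehydrogenase gene, which rose by 0.23 with the replicate block (limma adjusted p = 0.0489, and 0.186 with genotype alone). rf2, encoding a mitochondrial aldehyde dehydrogenase known as a fertility restorer, differed by -0.26 and pdh1 (LOC541699) by -0.21 (limma adjusted p = 0.202 and 0.299). Genes that remove superoxide and peroxide went both ways, with 4 of 9 lower (median 0.085). With the replicate block apx2, an ascorbate peroxidase gene, fell by 0.29 (limma adjusted p = 0.0492, and 0.0643 with genotype alone). PRX1, a peroxidase gene, differed by -0.21 and cat1, a catalase gene on chromosome 5, by 0.24 (limma adjusted p = 0.168 and 0.211). In RefSeq's gene order cat1 is gene 1927 of 5209, and whether it lies on the duplicated segment was not settled here. A dimmer cat1 probe set differed by -0.089.

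**Figure D4:**
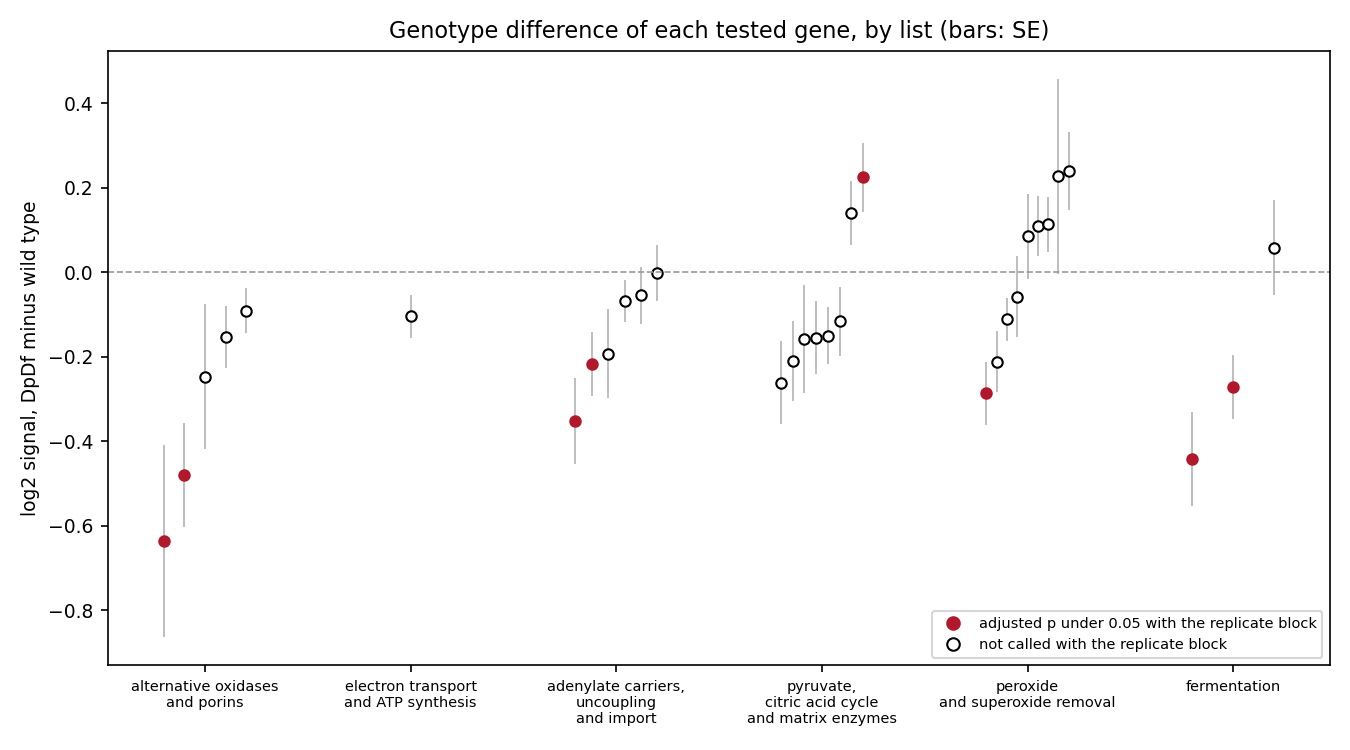
Log2 difference, DpDf minus wild type (vertical axis, bars are SE), of each tested gene in the oxidase and porin group and in the 5 lists of related genes (horizontal axis). Filled red points passed an adjusted p of 0.05 with the replicate block: LOC542074, vdac2, phb3, phb2, mdh6, apx2, pdc3 and adh1, of which mdh6 alone is above 0.

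A measure of RNA integrity moved with genotype beside these results. It is the log2 signal of 3' minus 5' probe sets of control transcripts, averaged over 7 maize controls. By replicate it was 1.59, 1.42, 1.28 and 1.31 in DpDf, against 1.09, 1.30, 1.08 and 1.24 in wild type. DpDf was higher in each pair, by 0.22 on average (two-sided exact permutation p = 0.0571). The pair gaps were 0.49, 0.12, 0.21 and 0.064 for replicates 1 to 4. Both pairs of seed source A thus had wider gaps than both of source B, the same split as for vdac2, vdac1b and LOC542073. For replicates 1 to 4 vdac1b differed by -0.25, -0.037, -0.25 and -0.074, and LOC542073 by -0.27, -0.056, -0.47 and -0.18. LOC542074 and vdac1a were not split in this way. The part of the gaps in the split of vdac2, vdac1b and LOC542073 was not tested. Pair 1, with the widest gap, had the largest difference of vdac2 (-0.81) and the smallest of LOC542074 (-0.29).

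With this measure as a covariate the vdac2 difference was -0.15 (limma adjusted p = 0.765), and -0.19 when the replicate block was kept too (limma adjusted p = 0.479). For LOC542074 the difference was -0.46 with the covariate (limma adjusted p = 0.842) and -0.83 with covariate and block (limma adjusted p = 0.0589). Leaving out both pools of replicate 1, an alternative chosen after seeing the data, gave -0.37 for vdac2 (limma adjusted p = 0.231) and -0.75 for LOC542074 (limma adjusted p = 0.0929). The covariate follows genotype in part, and the part of RNA integrity in the differences was not tested.

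**Figure D5:**
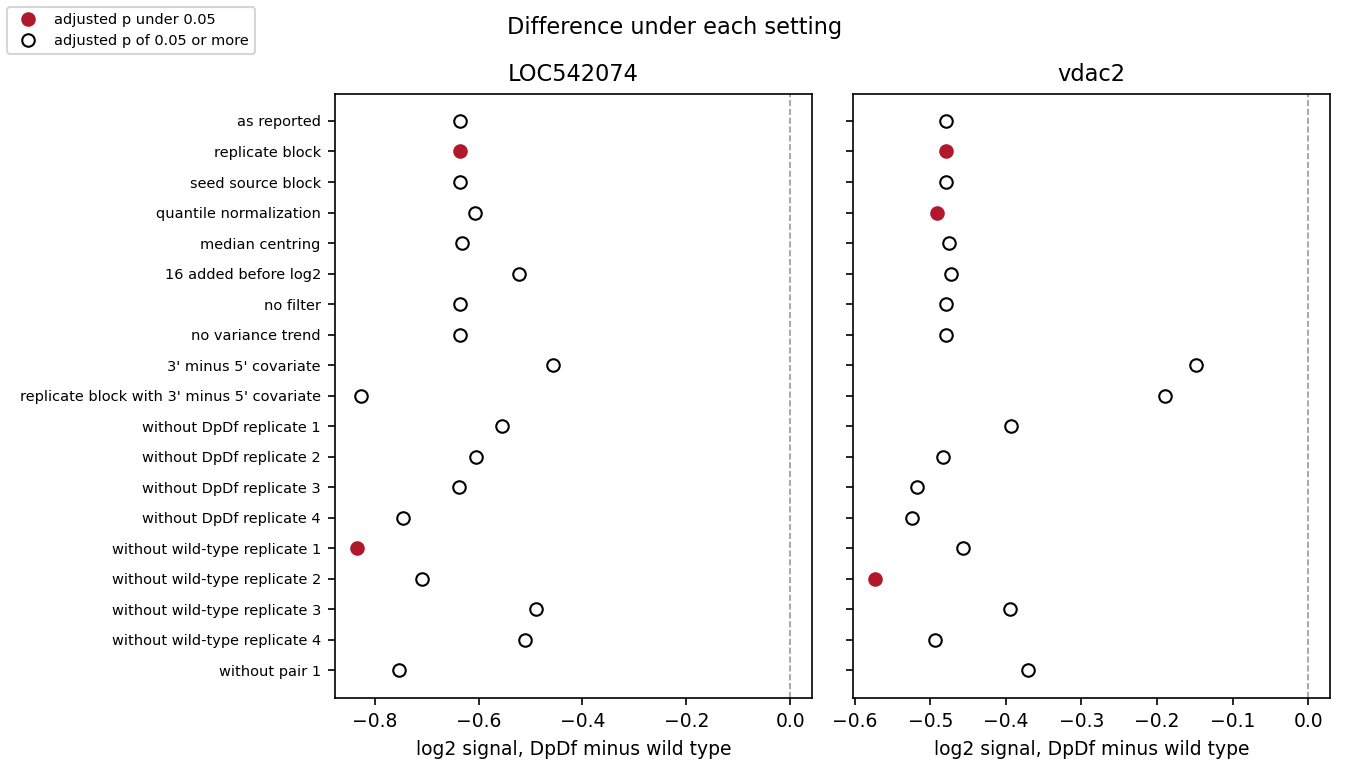
Log2 difference, DpDf minus wild type (horizontal axes), of LOC542074 (left) and vdac2 (right) under each setting (vertical axis); filled red points have an adjusted p under 0.05. All points lie below 0, and the points of vdac2 nearest to 0, at -0.15 and -0.19, are those with the 3' minus 5' covariate.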

How the data were processed

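Affymetrix maize arrays of 8 pools were used as 1 deposited table. It holds 1 intensity per probe set and array on a linear scale, as the authors deposited it. MAS5 is named, per the submitters' processing notes; version and scaling target are not stated there. Array medians were 135.9 to 142.4, so values were taken to log2 without further normalization. The number of arrays limits the precision, and levels were not compared between probe sets.

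The 113 array controls were left out, and so was the dimmest 30% of probe sets by mean log2 value, leaving 12335 of 17621. Names came from the platform annotation, joined by gene number to a RefSeq table of Zm-B73-REFERENCE-NAM-5.0 (1060 of 1108 genes matched). A list gene stands as its brightest probe set. Matches whose annotated names belong to other proteins (cyclins, ethylene-forming oxidases, pgd2, cytosolic mdh5) were left out, 7 genes.

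DpDf minus wild type was fitted with limma 3.58.1 in R 4.3.3 (lmFit, eBayes with trend, Benjamini-Hochberg over all 12335 probe sets); the code was tested on simulated data. Same-numbered pools share a seed source, and their deviations correlated across probe sets at r = 0.36, 0.51, 0.56 and 0.33. Each DpDf pool matched the wild-type pool of its own number best, so differences are also given by pair. The fit with genotype alone does not use this pairing, and the fit with the replicate block does. With genotype alone, and in the permutation tests, p-values measure spread between pools. With the replicate block or sign flips they measure spread between the differences of same-numbered pools. Members, lists and tests were chosen with earlier results of these data known. Named genes were all members, the 3 most correlated genes per member and, per list, called genes and the 3 smallest p. Marker genes of leaf and of other tissues are named too, and further genes are marked as outside the rule. Alternatives covered blocks, normalization, filter, an added constant, variance trend, the 3' minus 5' covariate and each pool left out.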

Additional observations from a re-analysis of the deposited data

How the results depend on the processing

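The replicate block gave 1253 calls over the array in limma, against 601 with genotype alone, and called 2 members, LOC542074 (-0.64) and vdac2 (-0.48), and 6 list genes. The 3' minus 5' covariate gave 302 calls over the array and turned vdac1b to 0.0093 (limma adjusted p = 0.995). Quantile normalization called 1 member (vdac2, -0.49) and 1 list gene. Seed source as a block and the 50th percentile filter, which leaves out LOC542074, also called 1 list gene, pdc3 in all 3 cases. With single pools left out, array-wide calls ran from 389 (without wild-type replicate 4) to 643, member calls from 0 to 1 and list gene calls from 0 to 1 (adh1 without wild-type replicate 1, pdc3 without wild-type replicate 2). The differences then ran from -0.83 to -0.49 for LOC542074, -0.57 to -0.39 for vdac2, -0.38 to -0.11 for LOC542073, -0.20 to -0.092 for vdac1b, -0.11 to -0.061 for vdac1a and -0.12 to 0.20 for aox3. The replicate block changed no interaction call, and its sign flips of the 3' minus 5' difference (0.22) gave p = 0.125, the smallest that 16 exact flips allow. The cause of these shifts was not tested. With genotype alone the interval of LOC542073 held DpDf levels from 0.64 to 1.10 times that of wild type.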
